A study of Homo sapiens with 9 samples.

Results

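Retinoic acid signalling in LAN-1, an established human neuroblastoma cell line, was read on microarrays through 10 genes, namely the receptors RARA, RARB, RARG, RXRA, RXRB and RXRG, the cellular binding proteins CRABP1 and CRABP2, and the degrading enzymes CYP26A1 and CYP26B1. The members were all probe sets that the platform annotation gives to 1 of these symbols alone. This found 33 probe sets of 9 genes among the 44988 probe sets with 1 gene symbol. RARA had 10 of them, RARG and RXRB 5 each, RARB and CRABP2 3 each, RXRA, RXRG and CYP26B1 2 each, and CYP26A1 1. CRABP1 matched no probe set in the annotation used and was not analysed here. None of the 33 probe sets passed the study's criterion, a limma p under 0.05 without adjustment and a log2 fold change beyond 1 in either direction, in any of the 3 comparisons of handling conditions. Of all probe sets, 0.0467% to 2.72% passed it in these comparisons, so 0 of 33 does not set the retinoid genes apart.

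The 9 arrays came from 3 handling conditions with 3 replicates each. In all of them LAN-1 cells had been spiked into tumor-free bone marrow, the mononuclear cells had been taken from a density gradient, and the tumor cells had been recovered with magnetic beads through GD2, a ganglioside on the neuroblastoma surface. In the condition called frozen with gradient, the mononuclear cells had been frozen in DMSO and thawed, and then passed through an additional density gradient before the beads. In frozen without gradient they had been frozen and thawed without that step, and in fresh they had been enriched at once with no freezing. The names follow the deposited labels of each array and nothing else. The study's text defines both frozen conditions and gives the larger count of changed genes against fresh to the one with the additional gradient. Under the deposited labels, with the study's most variable probe set per gene, 448 passed the criterion without gradient and 16 with gradient. The labels may be exchanged in 1 of these sources, which was not tested. If so, every value given here for one frozen condition would be the other's, and each comparison between them would change its sign. All 3 conditions thus rest on 1 cell line that had been mixed with marrow, and any marrow cells left after the beads contribute RNA to the array. In such bulk samples, fewer cells of a type and less RNA per cell cannot be told apart. From 100 ng of total RNA per sample, 1 Affymetrix PrimeView array was hybridized, and the values are log2 signals by RMA. Probes differ in brightness, so levels of different genes were not compared, and the brightest probe set of a gene is the one with the highest mean over the 9 arrays.

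MYCN, the amplified oncogene of this line, read between 13.15 and 13.66 on its brightest probe set on all arrays. Another MYCN probe set, 11750948_a_at, ran from 6.38 in replicate 1 frozen with gradient to 11.67 in replicate 3 frozen without gradient and was lower with against without gradient, with a fold of -2.59 (SE 1.04, limma, unadjusted p = 0.0352), or -1.34 (unadjusted p = 0.093) without replicate 1 frozen with gradient. Of 48 probe sets of 16 of the 18 neuroblastoma identity genes, 2 (of TH and HAND2) were higher without gradient against fresh at the criterion. That was 4.17%, against 1.52% of all probe sets past it. Between the frozen conditions 4 were lower, of TH, HAND2, MYCN and ISL1 (8.33%, against 2.72% of all past the criterion). Those of TH and HAND2 were also past it without replicate 1 frozen with gradient. A fit that also took in the GAPDH difference given below left only TH past it, with a fold of -1.003. HAND2, MYCN and ISL1 then had folds of -0.66, -0.19 and -0.22. In that fit the folds of TH and HAND2 without gradient against fresh were 0.73 and 0.68, neither past the criterion. The brightest HAND2 probe set read 12.47 to 12.57 frozen with gradient, 12.64 to 12.89 frozen without gradient and 12.69 to 12.74 fresh. The 9 arrays differed in how far the signal of the GAPDH control fell toward the 5' end of its transcript. Whether this came from labelling or from the integrity of the RNA was not tested. The 3' minus 5' difference of the GAPDH control probe sets was 6.73, 2.90 and 2.07 in replicates 1, 2 and 3 frozen with gradient. It was 1.09, 1.45 and 0.94 in those frozen without gradient and 4.92, 3.56 and 1.56 in the fresh ones. All arrays frozen without gradient thus lay below all others. A fit with this difference as a covariate therefore cannot fully tell its effect from that of the condition. Replicate 1 frozen with gradient stood apart, with the largest difference and a median correlation with the other 8 arrays of 0.928, where the other arrays had 0.966 to 0.990. This array was the highest of the 9 for 20 of the 33 retinoid probe sets (60.6%), against 35.3% of all probe sets, and the lowest for 2 of them (6.06%), against 21.0% of all.

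Retinoic acid is made from vitamin A and enters the nucleus, where it binds heterodimers of a retinoic acid receptor (RAR) and a retinoid X receptor (RXR) on DNA. Without ligand the dimer holds corepressors at its target genes, and ligand exchanges these for coactivators. In neuroblastoma, retinoic acid drives differentiation and is used in treatment as isotretinoin. Among the best known direct targets are genes of the pathway itself, the receptor gene RARB and the gene of the retinoic acid hydroxylase CYP26A1, which closes a negative feedback loop.

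The element bound by RAR and RXR, a direct repeat of a hexamer with 5 bases between the copies, was looked for in the members' promoters. The RefSeq windows from 250 bases before to 50 bases after each start (GRCh38.p14) were searched on both strands for pairs of AGGTCA or AGTTCA or GGGTCA or GGTTCA in the same orientation. With a spacer of 5 bases, 31 of 35116 windows held such a repeat (0.0883%). Among the 18 windows of the 10 member genes, 2 did, 1 of RARB and 1 of CYP26A1. Both genes are textbook direct targets of the receptors, and the windows are shown because they are the members' only ones that hold the repeat. Capitals mark the repeat. The RARB window lies at chr3:25428013-25428312 on the plus strand, with the repeat at chr3:25428210-25428226. The CYP26A1 window lies at chr10:93073643-93073942 on the plus strand, and its repeat at chr10:93073803-93073819 reads on the opposite strand.
RARB: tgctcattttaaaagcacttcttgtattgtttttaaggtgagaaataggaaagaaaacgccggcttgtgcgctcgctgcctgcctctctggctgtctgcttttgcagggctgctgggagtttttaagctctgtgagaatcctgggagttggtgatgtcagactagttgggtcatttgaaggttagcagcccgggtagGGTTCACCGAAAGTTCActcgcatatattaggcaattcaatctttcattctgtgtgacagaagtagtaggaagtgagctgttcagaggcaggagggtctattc
CYP26A1: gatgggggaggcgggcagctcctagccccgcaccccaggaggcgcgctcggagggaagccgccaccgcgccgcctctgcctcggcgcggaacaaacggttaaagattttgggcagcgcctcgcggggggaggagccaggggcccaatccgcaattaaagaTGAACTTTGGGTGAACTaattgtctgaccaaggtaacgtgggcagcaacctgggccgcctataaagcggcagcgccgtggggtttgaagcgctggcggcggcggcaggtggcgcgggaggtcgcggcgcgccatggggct
Repeats with a spacer of 1 base stood in 46 windows (0.131%) and with 2 bases in 14 windows (0.0399%), none of them of a member. A match to these letters is a description of the sequence and says nothing of binding in these cells.

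**Figure D1:**
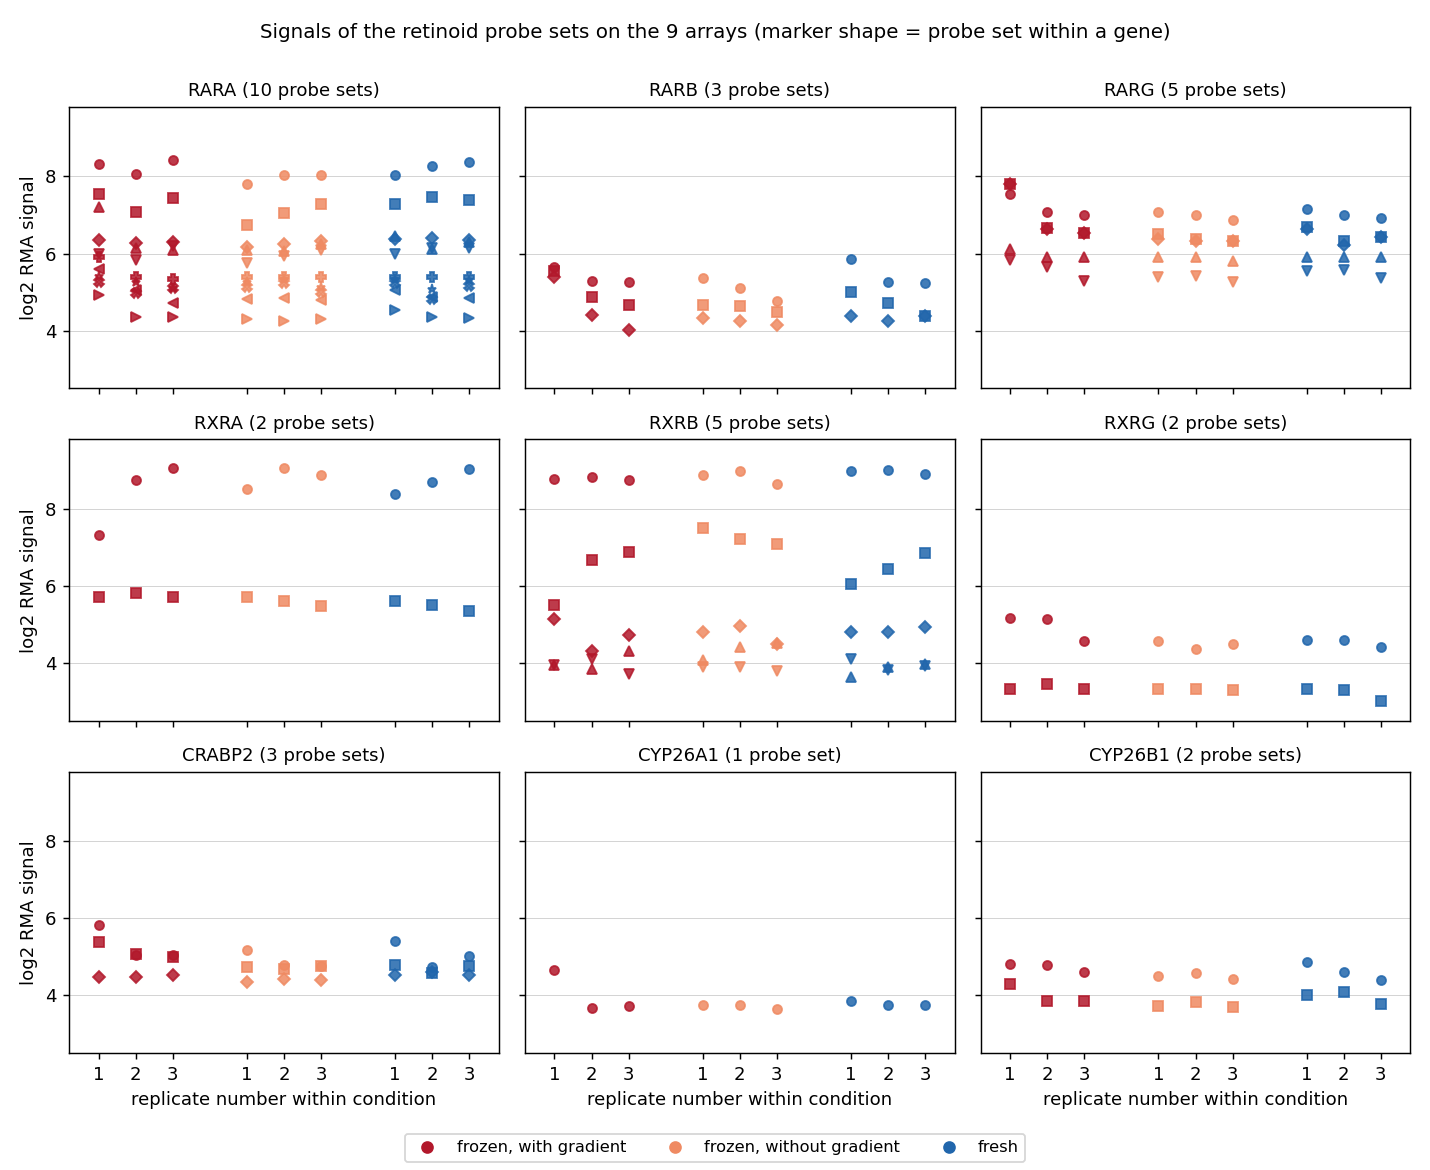
Signals of the 33 retinoid probe sets, 1 panel per gene. The vertical axis is the log2 RMA signal, the horizontal axis the replicate number within frozen with gradient (red), frozen without gradient (orange) and fresh (blue), and each marker shape is 1 probe set. In several panels replicate 1 frozen with gradient lies apart from the other arrays, as for CYP26A1, with 4.65 there and 3.64 to 3.86 elsewhere.

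Against fresh, the retinoid genes of cells frozen without gradient showed 2 probe sets with an unadjusted p under 0.05, both of RXRB and both higher, which is 6.06% of the 33 against 6.22% of all probe sets. No retinoid probe set was lower at that p, against 7.38% of all. The criterion was met by 0 of 33 retinoid probe sets (limma, 2 with an unadjusted p under 0.05) and by 686 of all probe sets (1.52%). Of the retinoid folds, 8 were above 0 and 25 below, from -0.37 to 0.82, with a median of -0.10, and the median over all probe sets was -0.06. With the GAPDH difference described above as a covariate, 24 of the 33 were above 0, with a median of 0.12. The 2 conditions did not overlap for 7 retinoid probe sets (21.2%), 2 higher and 5 lower, against 23.2% of all. The 95% interval of the fold stayed within 1 log2 unit of 0 for 31 of the 33, against 81.7% of all probe sets. The exceptions were 1 probe set each of RXRA and RXRB.

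Frozen with gradient against fresh, CRABP2 and RXRG each had 1 probe set higher at an unadjusted p under 0.05, together 6.06% of the 33, against 2.44% of all probe sets, and none was lower, against 2.3% of all. The criterion was met by 0 of 33 (limma, 2 with an unadjusted p under 0.05) and by 21 of all probe sets (0.0467%). Folds were above 0 for 23 of the 33, from -0.33 to 0.56, with a median of 0.11 against 0.01 over all probe sets. Without replicate 1 frozen with gradient, 13 of the 33 were above 0 and the median was -0.03. The conditions did not overlap for 3 retinoid probe sets (9.09%), 2 higher and 1 lower, against 7.75% of all. The interval stayed within 1 log2 unit for 30 of the 33, against 86.9% of all.

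Frozen with gradient against frozen without gradient, CRABP2 and RXRG had 1 probe set each that was higher (6.06% of the 33, against 9.63% of all) and RXRB had 1 that was lower (3.03%, against 9.31% of all). The criterion was met by 0 of 33 (limma, 3 with an unadjusted p under 0.05) and by 1224 of all probe sets (2.72%). Folds were above 0 for 27 of the 33, from -0.91 to 0.65, with a median of 0.24. Over all probe sets the median was 0.10, and 61.9% of them were above 0. Cyclic loess normalization brought the median of all probe sets to -0.004 and that of the members to 0.08, with 24 of the 33 above 0. Without replicate 1 frozen with gradient the medians were 0.07 for the members and 0.04 for all probe sets. With the GAPDH covariate they were -0.01 and 0.002, and 15 of the 33 were above 0. The conditions did not overlap for 10 retinoid probe sets (30.3%), 9 higher and 1 lower, against 30.4% of all. The interval stayed within 1 log2 unit for 28 of the 33, against 78.2% of all. At an unadjusted p under 0.05, the 2 higher and 1 lower retinoid probe sets became 1 and 0 without replicate 1 frozen with gradient, 5 and 1 without replicate 2, 8 and 2 without replicate 3, and 0 and 0 with the GAPDH covariate. The 3 comparisons share arrays pairwise, so their folds are not independent of each other. No probe set of any gene reached a Benjamini-Hochberg adjusted p under 0.05 in limma in any comparison, while 6117, 2132 and 8518 had an unadjusted p under 0.05 in the order of these paragraphs.

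**Figure D2:**
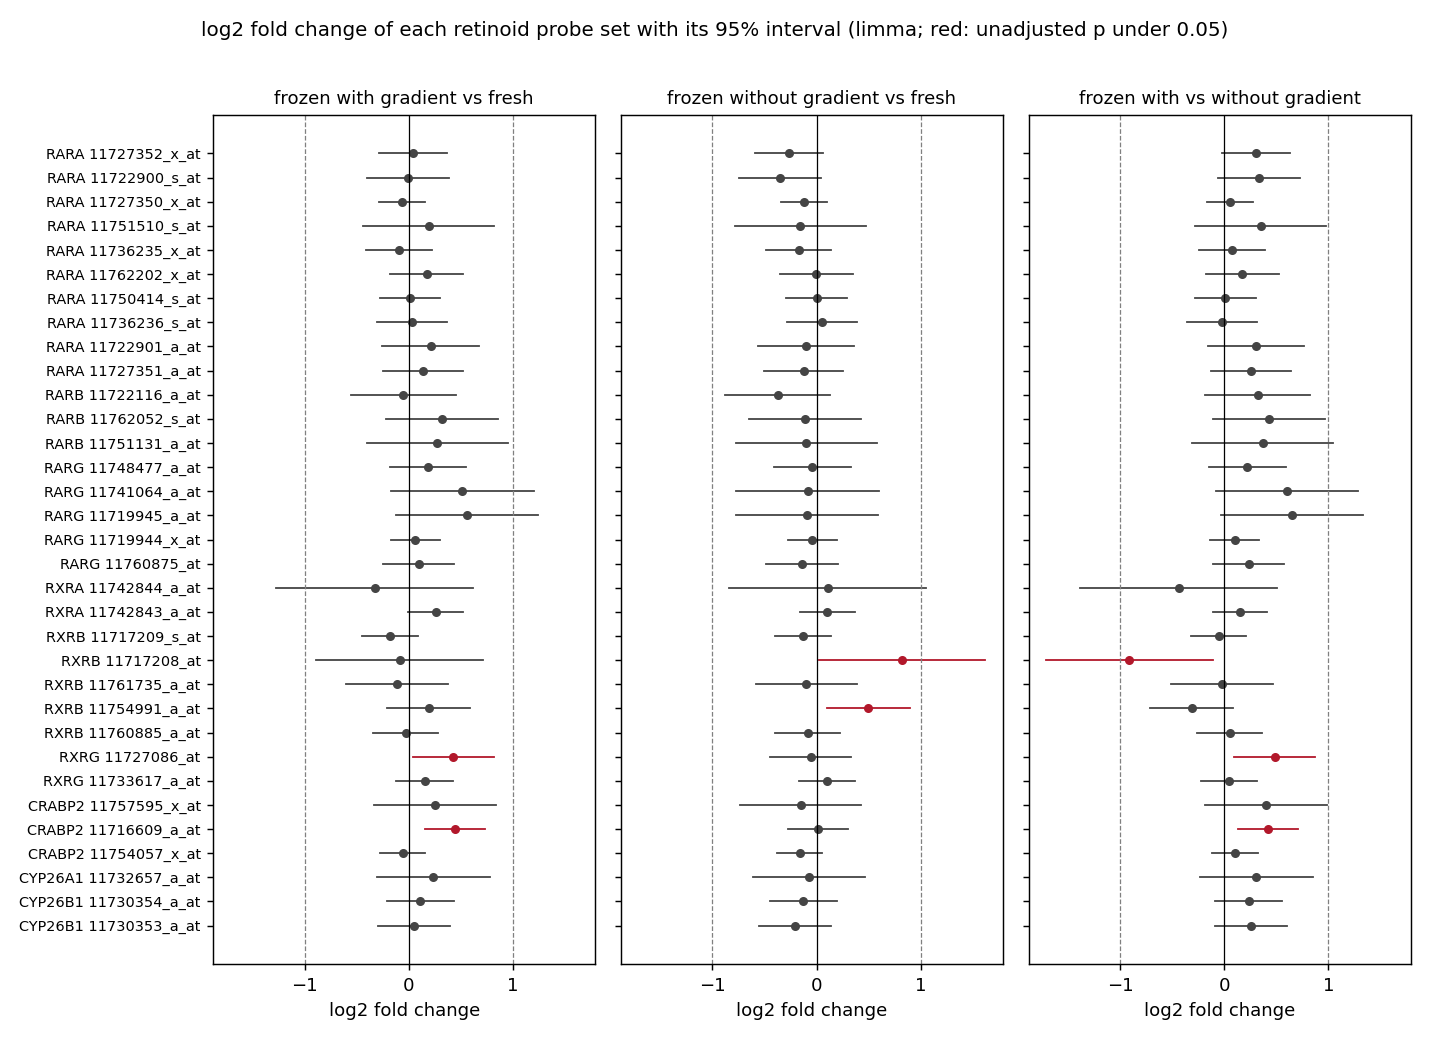
The log2 fold change (horizontal axis) of each of the 33 retinoid probe sets (rows) in frozen with gradient against fresh, frozen without gradient against fresh, and frozen with against without gradient. Points are limma estimates, lines 95% intervals, dashed lines the fold of the criterion, and red marks an unadjusted p under 0.05, reached by 2, 2 and 3 probe sets in the panels.

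RARA, the most broadly expressed of the retinoic acid receptors, had its highest signal on 11727352_x_at. It read 8.32, 8.05 and 8.43 frozen with gradient, 7.81, 8.03 and 8.04 frozen without gradient and 8.05, 8.27 and 8.36 fresh. The arrays frozen without gradient lay below all others, with a fold of -0.26 against fresh (SE 0.14, adjusted p = 0.455). With against without gradient the fold was 0.30 (SE 0.14, adjusted p = 0.273). Probe set 11722900_s_at had a fold of -0.35 without gradient against fresh (SE 0.17, adjusted p = 0.417). The most variable RARA probe set, 11751510_s_at, read 7.22, 6.14 and 6.09 frozen with gradient, 6.09, 6.06 and 6.26 frozen without gradient and 6.45, 6.12 and 6.31 fresh. A single array thus carried its spread, and its fold with against without gradient was 0.35 with that array and -0.02 without it. Across all 10 RARA probe sets the folds ran from -0.35 to 0.05 without gradient against fresh, from -0.10 to 0.21 with gradient against fresh and from -0.02 to 0.35 between the frozen conditions. RARA held 10 of the 33 probe sets, and 4 of the 5 retinoid ones whose arrays frozen without gradient all lay below the fresh ones. In that comparison the conditions did not overlap for 21.2% of the retinoid and 23.2% of all probe sets.

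RARB is itself induced by retinoic acid and is often described as a tumor suppressor in epithelial cells. Its brightest probe set, 11722116_a_at, read 5.65, 5.29 and 5.25 frozen with gradient, 5.37, 5.09 and 4.76 frozen without gradient and 5.85, 5.25 and 5.24 fresh. Its fold without gradient against fresh was -0.37 (SE 0.22, adjusted p = 0.493), the lowest of the 33 in that comparison, and the arrays of both conditions overlapped. Probe set 11751131_a_at read 5.40, 4.41 and 4.02 frozen with gradient, 4.32, 4.24 and 4.15 frozen without gradient and 4.38, 4.25 and 4.37 fresh. Here replicate 1 frozen with gradient lay 0.99 above the next array, and the fold with against without gradient was 0.37 with it and -0.03 without it. No RARB probe set had an unadjusted p under 0.05, and the intervals of its 3 probe sets ran from -0.87 to 0.58 without gradient against fresh and from -0.55 to 0.95 with gradient against fresh. Between the frozen conditions the interval of 11751131_a_at ran from -0.30 to 1.04.

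RARG, the receptor best known from skin and cartilage, showed the largest positive folds between the frozen conditions. Its brightest probe set, 11748477_a_at, read 7.54, 7.07 and 6.999 frozen with gradient, 7.08, 6.999 and 6.86 frozen without gradient and 7.15, 6.999 and 6.91 fresh. The most variable one, 11719945_a_at, read 7.79, 6.64 and 6.53 frozen with gradient, 6.37, 6.32 and 6.33 frozen without gradient and 6.63, 6.22 and 6.44 fresh. All 3 arrays with gradient lay above all 3 without, and the fold was 0.65 (SE 0.30, 95% interval -0.03 to 1.33, adjusted p = 0.271). Without replicate 1 frozen with gradient it was 0.25 (SE 0.13, adjusted p = 0.527). Probe set 11741064_a_at followed the same arrays, with folds of 0.60 and, without that array, 0.20. The other 3 RARG probe sets had folds of 0.10 to 0.24 in the same comparison.

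RXRA, the main partner in RAR heterodimers, had the widest interval of the 33 probe sets on 1 of its own. Its probe set 11742844_a_at read 7.31, 8.75 and 9.07 frozen with gradient, 8.50, 9.06 and 8.88 frozen without gradient and 8.37, 8.70 and 9.04 fresh. Replicate 1 frozen with gradient was the lowest of all arrays by 1.06, whereas most retinoid probe sets were highest there. The fold with gradient against fresh was -0.33 (SE 0.42, 95% interval -1.27 to 0.62) with that array and 0.21 (SE 0.23) without it. The second RXRA probe set, 11742843_a_at, read 5.72, 5.82 and 5.71 frozen with gradient, 5.70, 5.61 and 5.48 frozen without gradient and 5.61, 5.51 and 5.36 fresh. The arrays with gradient lay above all others, and the fold against fresh was 0.26 (SE 0.11, 95% interval -0.004 to 0.52, adjusted p = 0.826). It had the sign of the first probe set's fold without replicate 1 frozen with gradient, and the opposite sign with it. Without gradient against fresh the folds were 0.11 on 11742844_a_at and 0.10 on 11742843_a_at.

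RXRB, the RXR encoded within the major histocompatibility region, held the largest absolute folds of the 33 on 1 probe set and an SD of 0.13 over the 9 arrays on another. Probe set 11717208_at read 5.52, 6.68 and 6.88 frozen with gradient, 7.50, 7.22 and 7.09 frozen without gradient and 6.05, 6.44 and 6.86 fresh. The 3 arrays frozen without gradient were the highest of the 9. Without gradient against fresh its fold was 0.82 (SE 0.35, 95% interval 0.02 to 1.62, adjusted p = 0.358), and with against without gradient it was -0.91 (SE 0.35, 95% interval -1.71 to -0.11, adjusted p = 0.254). It passed the criterion without replicate 3 fresh (fold 1.03 without gradient against fresh) and without replicate 2 or 3 frozen with gradient (folds -1.07 and -1.17 between the frozen conditions). Without replicate 1 frozen with gradient the fold between the frozen conditions was -0.49 (limma, unadjusted p = 0.0699). The brightest RXRB probe set, 11717209_s_at, read 8.78, 8.82 and 8.75 frozen with gradient, 8.89, 8.98 and 8.64 frozen without gradient and 8.98, 9.02 and 8.90 fresh. Its folds in the same comparisons were -0.13 (SE 0.12) and -0.05 (SE 0.12), so the probe sets of this gene disagreed. Probe set 11754991_a_at read 3.94, 3.84 and 4.32 frozen with gradient, 4.08, 4.42 and 4.53 frozen without gradient and 3.65, 3.91 and 3.97 fresh, with a fold of 0.50 without gradient against fresh (SE 0.18, adjusted p = 0.288). The remaining 2 RXRB probe sets had folds of -0.12 to 0.05 over the 3 comparisons.

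RXRG, the RXR of muscle, brain and retina, had 2 probe sets. Probe set 11727086_at read 5.17, 5.14 and 4.57 frozen with gradient, 4.57, 4.36 and 4.50 frozen without gradient and 4.60, 4.59 and 4.42 fresh. Replicates 1 and 2 frozen with gradient lay above the other 7 arrays, while replicate 3 equalled replicate 1 frozen without gradient. The fold was 0.43 with gradient against fresh (SE 0.17, 95% interval 0.04 to 0.81, adjusted p = 0.826) and 0.48 with against without gradient (SE 0.17, 95% interval 0.09 to 0.87, adjusted p = 0.254). Without replicate 1 frozen with gradient these folds were 0.32 and 0.38, with unadjusted p in limma of 0.102 and 0.0614. The other RXRG probe set, 11733617_a_at, had the same value of 3.32 on 5 of the 9 arrays and folds of 0.05 to 0.15.

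CRABP2 carries retinoic acid from the cytosol to the receptors. Of the 33 probe sets, its 11716609_a_at had the smallest unadjusted p with gradient against fresh. It read 5.38, 5.07 and 5.01 frozen with gradient, 4.73, 4.69 and 4.76 frozen without gradient and 4.78, 4.59 and 4.76 fresh. All arrays with gradient lay above all other 6 arrays. The fold was 0.44 with gradient against fresh (SE 0.13, 95% interval 0.15 to 0.73, adjusted p = 0.826) and 0.42 with against without gradient (SE 0.13, 95% interval 0.13 to 0.71, adjusted p = 0.254). Without replicate 1 frozen with gradient these folds were 0.33 and 0.31, with unadjusted p in limma of 0.0145 and 0.0188. The other CRABP2 probe sets did not do the same. The brightest one, 11757595_x_at, read 5.84, 5.05 and 5.06 frozen with gradient, 5.18, 4.80 and 4.76 frozen without gradient and 5.42, 4.74 and 5.03 fresh, with overlapping conditions and a fold of 0.25 with gradient against fresh (SE 0.26), or -0.01 (SE 0.21) without replicate 1 frozen with gradient. Probe set 11754057_x_at had a fold of -0.06 in that comparison (SE 0.10).

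CYP26A1 and CYP26B1 hydroxylate retinoic acid and so clear it from the cell. CYP26A1 read 4.65, 3.67 and 3.72 frozen with gradient, 3.74, 3.74 and 3.64 frozen without gradient and 3.86, 3.74 and 3.74 fresh. Apart from replicate 1 frozen with gradient the arrays spanned 0.22, and 4 of them held the same value. Its fold with gradient against fresh was 0.24 (SE 0.24, 95% interval -0.30 to 0.78) with that array and -0.08 (SE 0.10) without it. CYP26B1 on 11730354_a_at read 4.82, 4.80 and 4.60 frozen with gradient, 4.50, 4.58 and 4.43 frozen without gradient and 4.88, 4.60 and 4.40 fresh. On 11730353_a_at it read 4.31, 3.86 and 3.86 frozen with gradient, 3.73, 3.82 and 3.70 frozen without gradient and 4.002, 4.09 and 3.78 fresh. On both CYP26B1 probe sets the arrays with gradient lay above those without, with folds of 0.24 (SE 0.14, adjusted p = 0.327) and 0.26 (SE 0.15, adjusted p = 0.322). These CYP26B1 folds were 0.20 and 0.11 without replicate 1 frozen with gradient, and under cyclic loess 0.05 and 0.09.

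Of the 33 probe sets, 7 carry the suffix x_at and 6 the suffix s_at, by which the manufacturer marks probes that can match more than 1 transcript. The mean over the 9 arrays was at least 5 for 19 of the 33 probe sets. No detection call was used, so a low signal does not say whether the gene was expressed. As a low signal reference, 29 probe sets of 15 genes restricted to pancreas, retina, heart, liver, kidney or mammary gland had means of 2.76 to 6.03. Of the 33 retinoid probe sets, 23 had means within that range. The reference's median fold between the frozen conditions was 0.29. The SD over the 9 arrays had a median of 0.21 for the members and 0.24 for all probe sets, and was under 0.3 for 23 of the 33, against 64.8% of all. The same value stood on 2 or more arrays for 18 of the 33 (54.5%), against 43.1% of all probe sets.

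The relation of each retinoid probe set to the GAPDH 3' minus 5' difference was computed over the 9 arrays. Pearson's r was above 0 for 29 of the 33 probe sets, against 64.3% of all. It was above 0.8 for 11 (20.5% of all probe sets were) and below -0.8 for 2 (14.4% of all). With exact permutation p-values adjusted over all 44988 probe sets, 17 of the 33 (51.5%) passed 0.05 for Pearson's r, against 43.0% of all, and 8 (24.2%) for Spearman's rho, against 29.1% of all, so relations that passed were about as frequent among all probe sets. The relation of RXRB 11717208_at had r = -0.972 (exact permutation p = 3.86e-05, adjusted p = 0.00142) and rho = -0.933 (exact permutation p = 0.00075, adjusted p = 0.0089). Leaving out the 2 arrays whose GAPDH difference lay farthest from the median, r was -0.879, and -0.96 after each condition was centred on its own mean. The arrays frozen without gradient had the smallest GAPDH differences of the 9 and the highest values of this probe set. With the GAPDH difference as a covariate its folds were 0.22 without gradient against fresh (limma, unadjusted p = 0.178) and -0.15 with against without gradient (limma, unadjusted p = 0.365). The brighter RXRB 11717209_s_at had r = 0.146 (exact permutation p = 0.704, adjusted p = 0.757) and rho = 0.233 (exact permutation p = 0.552, adjusted p = 0.648).

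CYP26B1 11730353_a_at rose with the same difference, at r = 0.948 (exact permutation p = 0.000562, adjusted p = 0.0055) and rho = 0.962 (exact permutation p = 0.000165, adjusted p = 0.00408), and kept r = 0.925 without the 2 farthest arrays. For RXRA 11742844_a_at, r = -0.842 (exact permutation p = 0.00845, adjusted p = 0.027) and rho = -0.55 (exact permutation p = 0.133, adjusted p = 0.225). Its r was -0.173 without the 2 farthest arrays, so this relation rested on them. The same held for RARG 11719945_a_at, CYP26A1 and RARA 11751510_s_at, whose r of 0.803, 0.82 and 0.813 came to 0.0901, 0.149 and -0.251 without those arrays. CRABP2 11716609_a_at had r = 0.603 (exact permutation p = 0.0841, adjusted p = 0.136) and rho = 0.477 (exact permutation p = 0.198, adjusted p = 0.302). With the GAPDH covariate its fold with gradient against fresh was 0.41 (limma, unadjusted p = 0.00364) and with against without gradient 0.28 (limma, unadjusted p = 0.0658).

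**Figure D3:**
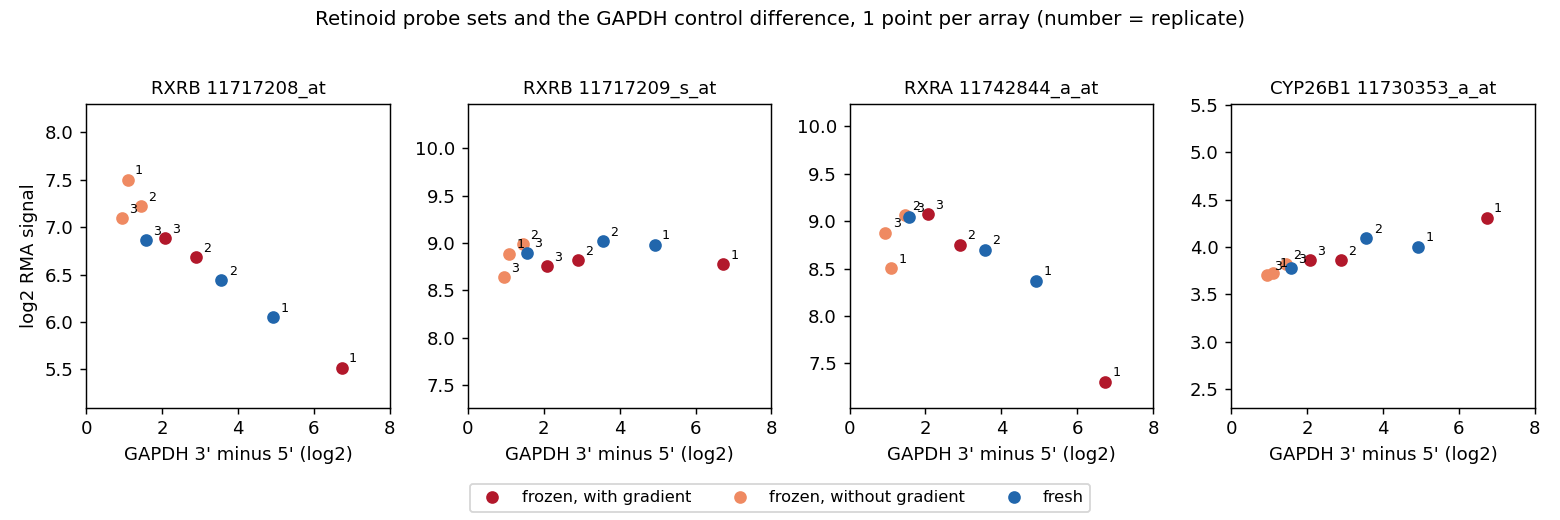
The log2 RMA signal of 4 retinoid probe sets (vertical axes, all of the same height in log2 units) against the GAPDH 3' minus 5' difference (horizontal axis, log2), 1 point per array with its replicate number, frozen with gradient in red, frozen without gradient in orange and fresh in blue. RXRB 11717208_at falls along the axis with r = -0.972 and CYP26B1 11730353_a_at rises with r = 0.948, whereas RXRB 11717209_s_at has r = 0.146. RXRA 11742844_a_at has r = -0.842, or -0.173 without the arrays at 6.73 and 4.92 together.

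Likeness of pattern was measured by Pearson's r over the 9 arrays for the brightest probe set of a member gene where its mean was at least 5 and its SD over the arrays at least 0.3, which held for RXRA, RARB and CRABP2. RXRA 11742844_a_at was most like LIMS1 (r = 0.996), UBE2K (r = 0.996) and RAB14 (r = 0.995), and 1734 of 25826 probe sets compared had r above 0.9. RARB 11722116_a_at was most like DNAH10 (r = 0.984), ST3GAL5 (r = 0.982) and ANKRD13C (r = 0.979), with 248 above 0.9. CRABP2 11757595_x_at was most like CEACAM4 (r = 0.978), ATG4A (r = 0.978) and TMEM175 (r = 0.972), with 350 above 0.9. All points share the arrays, and these values are a description.

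In the pathway around the members, the share of probe sets past the criterion was read against 1.52% of all without gradient against fresh and 2.72% between the frozen conditions. Of 50 probe sets of 24 genes for retinoid uptake, storage and synthesis, 1 of RDH11, a retinol dehydrogenase, passed in both of these comparisons (2.0%). It read 5.79, 7.22 and 7.50 frozen with gradient, 8.41, 7.87 and 8.37 frozen without gradient and 6.15, 6.55 and 7.58 fresh, with folds of 1.46 without gradient against fresh (SE 0.48, adjusted p = 0.272) and -1.38 with against without gradient (SE 0.48, adjusted p = 0.254). The second of these was -0.86 without replicate 1 frozen with gradient (limma, unadjusted p = 0.0536) and no longer past the criterion. With the GAPDH covariate both folds, at 0.60 and -0.31, were no longer past it. The brightest RDH11 probe set had folds of -0.34 and 0.11 in these comparisons. The list's median fold was -0.10 without gradient against fresh, 0.10 with gradient against fresh and 0.21 between the frozen conditions.

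Of 58 probe sets of 16 receptor coregulators, 1 was higher without gradient against fresh (1.72%) and 2 were lower with against without gradient (3.45%). TBL1X, a subunit of the NCoR corepressor complex, had folds of 1.57 (SE 0.44, adjusted p = 0.258) and -1.14 (SE 0.44, adjusted p = 0.254) on 11757948_s_at, and -0.21 and -0.08 on its brightest probe set. EP300, a histone acetyltransferase and coactivator, had a fold of -1.63 with against without gradient (SE 0.65, adjusted p = 0.256). These folds between the frozen conditions were -0.80 for TBL1X and -0.84 for EP300 without replicate 1 frozen with gradient (limma, unadjusted p = 0.102 and 0.0871). With the GAPDH covariate they were -0.22 and -0.16. The TBL1X fold without gradient against fresh was then 0.84 and no longer past the criterion. The 53 probe sets of 10 other nuclear receptors that pair with RXR held none past the criterion in any comparison. Of 69 probe sets of 24 retinoic acid target genes, 1 of MEIS2, a homeobox factor induced by retinoic acid, was higher without gradient against fresh (1.45%), by 1.16 (SE 0.34, adjusted p = 0.258). With the GAPDH covariate this fold was 0.78 and no longer past the criterion. The brightest MEIS2 probe set had a fold of 0.17 (SE 0.33). Median folds over the targets were -0.03 without gradient against fresh, 0.10 with gradient against fresh and 0.20 between the frozen conditions.

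Markers of marrow cells differed between the conditions beside these results. The mean signal was taken over 24 probe sets of 16 granulocyte genes, all of 16 listed. It was 4.23 to 4.82 frozen with gradient, 3.96 to 4.21 frozen without gradient and 4.54 to 5.43 fresh. Of these probe sets, 7 (29.2%, against 1.52% of all) were lower without gradient against fresh at the criterion. With the GAPDH covariate those of S100A9, LTF, MMP8 and LCN2 no longer passed, while those of S100A8, S100A12 and MMP9 did. The MMP8 one also did not pass without replicate 1 frozen with gradient (limma, unadjusted p = 0.05125). Over 16 probe sets of 7 erythroid genes of 14 listed, the mean signal was 5.41 to 5.60, 4.74 to 5.27 and 5.64 to 5.93 in the same order of conditions. The 3 probe sets of HBB, a globin, that passed were lower in both frozen conditions against fresh, except that 11715347_s_at with gradient no longer passed without replicate 1 frozen with gradient. They were 18.8% of the list in each of these comparisons, against 1.52% of all probe sets without gradient and 0.0467% with gradient. HBB was the only gene of this list past the criterion. The list's median fold was -0.36 without gradient against fresh but -0.02 with gradient against fresh. Over 12 megakaryocyte and platelet probe sets the mean was 5.62 to 6.04 frozen with gradient, 4.89 to 5.48 frozen without gradient and 4.99 to 5.70 fresh. Over 31 of T and NK cells it was 4.02 to 4.45, 3.92 to 3.97 and 3.96 to 4.22 in that order, over 29 of B and plasma cells 4.56 to 5.04, 4.495 to 4.55 and 4.50 to 4.595, and over 34 of stromal and endothelial cells 4.56 to 4.81, 4.39 to 4.50 and 4.475 to 4.705. The granulocyte, erythroid, megakaryocyte, T and NK, B and stromal lists were thus higher on all arrays with gradient than on all arrays without, and the megakaryocyte, T and NK and B lists held no probe set past the criterion, nor did the stromal one. Their median folds between the frozen conditions were 0.35, 0.40, 0.51, 0.26, 0.25 and 0.24 in that order. The tissue-restricted reference described above had 0.29. That was above the T and NK, B and stromal medians and below the granulocyte, erythroid and megakaryocyte ones. The cause of these shifts was not tested. Over 28 probe sets of monocytes and macrophages the ranges, 5.25 to 5.49, 5.19 to 5.33 and 5.28 to 5.35, overlapped between the frozen conditions. There C1QB was lower and VCAN higher without gradient against fresh at the criterion (7.14% of the list, against 1.52% of all). VCAN was lower with against without gradient (3.57%, against 2.72% of all), though not without replicate 1 frozen with gradient (fold -1.24, limma, unadjusted p = 0.0656). With the GAPDH covariate these VCAN folds were 0.83 and -0.54, neither past the criterion. The identity genes had 7.465 to 7.62, 7.58 to 8.03 and 7.54 to 7.695. RMA gives no 0, so no marker can be called absent, and the part of these cells in the retinoid signals was not tested.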

How the data were processed

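RNA of LAN-1 cells was measured on 9 arrays. The authors computed the deposited log2 values with RMA, which corrects background, normalizes by quantiles and summarizes the probes of a set. Of 49395 probe sets, 102 controls, 1832 with several symbols and 2473 with none were left out, and 44988 were tested one by one with limma 3.58.1 in R 4.3.3 on 3 condition means, with Benjamini-Hochberg adjustment over all of them. The criterion, a p under 0.05, read as unadjusted, and a log2 fold change beyond 1 in either direction, is the study's. The study's methods call the replicates biological without saying whether each had its own marrow, so p-values measure the spread between these samples. Only 3 arrays per condition limit the precision. Exact permutation over 362880 orders of the 9 arrays used Python 3.11.15.

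The members and gene lists were chosen with earlier results of these data known. The text gives every array for each gene's brightest and most variable probe set, and for those with an unadjusted p under 0.05. Promoter windows are from RefSeq (GRCh38.p14). Alternatives were other normalizations, a mean log2 of at least 5, another variance model, the replicate number as a block, 6 arrays alone, 1 probe set per gene, the GAPDH difference as a covariate, and each array left out. The fold of each retinoid probe set with an unadjusted p under 0.05 was followed through them by a choice made after seeing the data. The fit was checked on simulated arrays.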

Additional observations from a re-analysis of the deposited data

How the results depend on the processing

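None of 7 retinoid folds followed through all settings turned its sign. Among the others named, those of RARA 11751510_s_at (-0.02) and RARB 11751131_a_at (-0.03) between the frozen conditions and of RXRA 11742844_a_at (0.21), CYP26A1 (-0.08) and CRABP2 11757595_x_at (-0.01) with gradient against fresh did without replicate 1 frozen with gradient. Of 113 values of the 7 folds, 83 kept an unadjusted p under 0.05 and 30 did not, among them 8 of RXRB 11717208_at without gradient against fresh and 8 of RXRG 11727086_at with gradient against fresh. CRABP2 11716609_a_at with gradient against fresh kept it at all 15 settings that hold it, with folds of 0.33 to 0.51. With arrays left out, retinoid probe sets past the criterion numbered 0 to 1 without gradient against fresh, 0 with gradient against fresh and 0 to 1 between the frozen conditions, the 1 being RXRB 11717208_at each time.

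Counts over all probe sets moved more. Without gradient against fresh, 686 became 1092 with the replicate block, 448 with the most variable and 113 with the brightest probe set per gene, both of which test fewer probe sets, and 289 with the GAPDH covariate, of which 56 were higher and 233 lower, where 621 were higher and 65 lower before. With gradient against fresh, 21 became 36 with the block and 12 with the brightest probe set per gene. With against without gradient, 1224 became 1941 with the block, 788 with the most variable and 201 with the brightest probe set per gene, and 120 with the GAPDH covariate, 44 higher and 76 lower against 28 and 1196. The cause was not tested. Arrays left out gave 129 (without replicate 1 fresh) to 2231 (without replicate 3 fresh) for the first comparison, with 397, 1070 and 388 without replicate 2 fresh, replicate 1 frozen with gradient and replicate 1 frozen without gradient. They gave 16 (without replicate 1 frozen with gradient) to 266 (without replicate 3 frozen with gradient) for the second, with 60 and 42 without replicate 3 fresh and replicate 2 frozen with gradient. They gave 314 (without replicate 1 frozen with gradient) to 3140 (without replicate 3 frozen with gradient) for the third, with 691 and 725 without replicates 1 and 3 frozen without gradient. The replicate block gave 0 retinoid probe sets past the criterion in each comparison, and at an unadjusted p under 0.05 it gave 2 higher and 1 lower, 4 higher, and 8 higher and 2 lower in the same order. That count for the first comparison was 0 without replicate 2 frozen without gradient and 1 lower without replicate 3 of it or replicate 1 fresh. For the second it was 6 higher with the GAPDH covariate and 5 higher without replicate 3 frozen with gradient. Same-numbered arrays of different conditions deviated together with a correlation above 0.1 in 7 of 9 pairs, from 0.0323 to 0.755. Pairs with different numbers ran from -0.741 to 0.377. Whether a number marks 1 marrow sample is not stated in the labels. The main fit took no pairing, so its p-values ignore any that exists, and the replicate block above takes it in.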
